A study of Mus musculus with 8 samples.

Results

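The unfolded protein response and endoplasmic reticulum (ER) degradation genes were followed in polarized mouse intestinal epithelial cells that had been exposed to a type III or a type I interferon (IFN). The set held 35 genes of 20800 tested, and a gene was a member if a probe on the array carried its name. All 35 were found, on 42 of 39429 probes, and every member probe was well above background on all 8 arrays and saturated on none. Members were placed in 4 roles: 14 chaperones and folding enzymes, 9 degradation genes, 4 stress sensors and factors, and 8 genes of the PERK-ATF4 arm.

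IEC10 is an immortalized mouse intestinal epithelial cell line, so the arrays describe 1 line without immune or stromal neighbours. The cells were grown for 21 days on transwell inserts, with new medium every 3 days, until confluent and polarized. They were then left untreated (2 arrays, replicates 2 and 3; medium by the labels, PBS by the study's text) or stimulated for 9 h with 20 ng/mL IFN-λ2 (3 arrays) or 500 U/mL IFN-β (3 arrays), and total RNA was hybridized to 1-color arrays. The labels do not say whether replicates were separate cultures, so the p-values measure the spread between these arrays, which may be technical.

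When proteins misfold in the ER, the chaperone Hspa5 (BiP) leaves 3 membrane sensors. Ern1 (IRE1α) splices the mRNA of Xbp1, Atf6 is cut to release a transcription factor, and Eif2ak3 (PERK) phosphorylates eIF2α, which slows translation but favours that of Atf4. XBP1 and ATF6 then raise chaperone and degradation genes, whereas ATF4 raises genes of amino acid supply and, with Ddit3 (CHOP), genes of cell death. Degradation means that misfolded proteins are drawn out of the ER by derlins and the Sel1l-Syvn1 ligase and destroyed by the proteasome. The arrays measure mRNA, not splicing or phosphorylation, and in bulk RNA fewer cells of a type and less RNA per cell cannot be told apart.

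Both cytokines acted on the cells: all 10 interferon-stimulated genes set aside as a check rose with each. Across all probes, 2604 rose and 2220 fell with IFN-λ2 against untreated cells, a split that became 1491 and 632 with another background correction (normexp). All 8 epithelial markers, among them Epcam, Krt8 and Cdh1, were well above background on every array, although Vil1 was low at 40.3 to 67.9 units. Their summed signal was 343653 to 368203 in untreated cells, 371357 to 395338 with IFN-λ2 and 337674 to 383879 with IFN-β, and with IFN-λ2 2 of the 8 rose (Cdh1 and Krt19) and 1 fell (Cldn3). Of the 12 secretory lineage markers 2 were well above background on all arrays, and Muc2, Tff3, Chga and Defa24 lay at the floor of 15 units throughout. The summed signal of that list was 627 to 774 in untreated cells, 4827 to 6785 with IFN-λ2 and 666 to 705 with IFN-β, and with IFN-λ2 most of it came from Mmp7. Of the 10 immune markers, 4 were well above background on all arrays. Among the 9 tested, 1 was lower with IFN-λ2 than in untreated cells and 1 than with IFN-β, beside 8.43% and 5.97% of all genes. Ptprc, Jchain and Mzb1 lay between the floor of 15 and 43.5 units, so the summed signal came almost wholly from other genes of the list. The summed signal of the immune list was 17115 to 20608 in untreated cells, 13715 to 15263 with IFN-λ2 and 15687 to 22594 with IFN-β. Of the 9 stromal and endothelial markers 1 was well above background on all arrays, and their summed signal was 969 to 1152 in untreated cells, 942 to 1094 with IFN-λ2 and 1095 to 1200 with IFN-β. The part of these lists in the results below was not tested.

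The question for each comparison was whether the cytokine changed the mRNA of the folding and degradation machinery. With IFN-λ2, 18 of the 35 members fell and 1 rose against untreated cells (limma, adjusted p below 0.05). Over all genes tested, 8.43% fell and 10.3% rose. Most of the falls were in 1 role: 11 of 14 chaperones and folding enzymes fell, against 3 of 9 degradation genes, 1 of 4 sensors and factors and 3 of 8 genes of the PERK-ATF4 arm. The median log2 difference was -0.69 for chaperones, -0.31 for degradation genes, 0.05 for sensors and factors and 0.17 for the PERK-ATF4 arm, beside 0.01 over all genes. Over the alternative settings the medians of the last 3 roles ranged from -0.37 to -0.13, from 0.0082 to 0.08 and from 0.02 to 0.21. Every IFN-λ2 array lay below both untreated arrays for 21 of 35 members, and that held for 24.7% of all genes. The count of 18 depended on single arrays: 11 fell without IFN-λ2 replicate 2 and 10 without IFN-λ2 replicate 3. Over all probes 1554 and 1540 fell in those fits, against 2220 of 25971 with all arrays. Fewer members, and fewer probes in all, also fell without either untreated array, which left 1 array in that group.

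**Figure D1:**
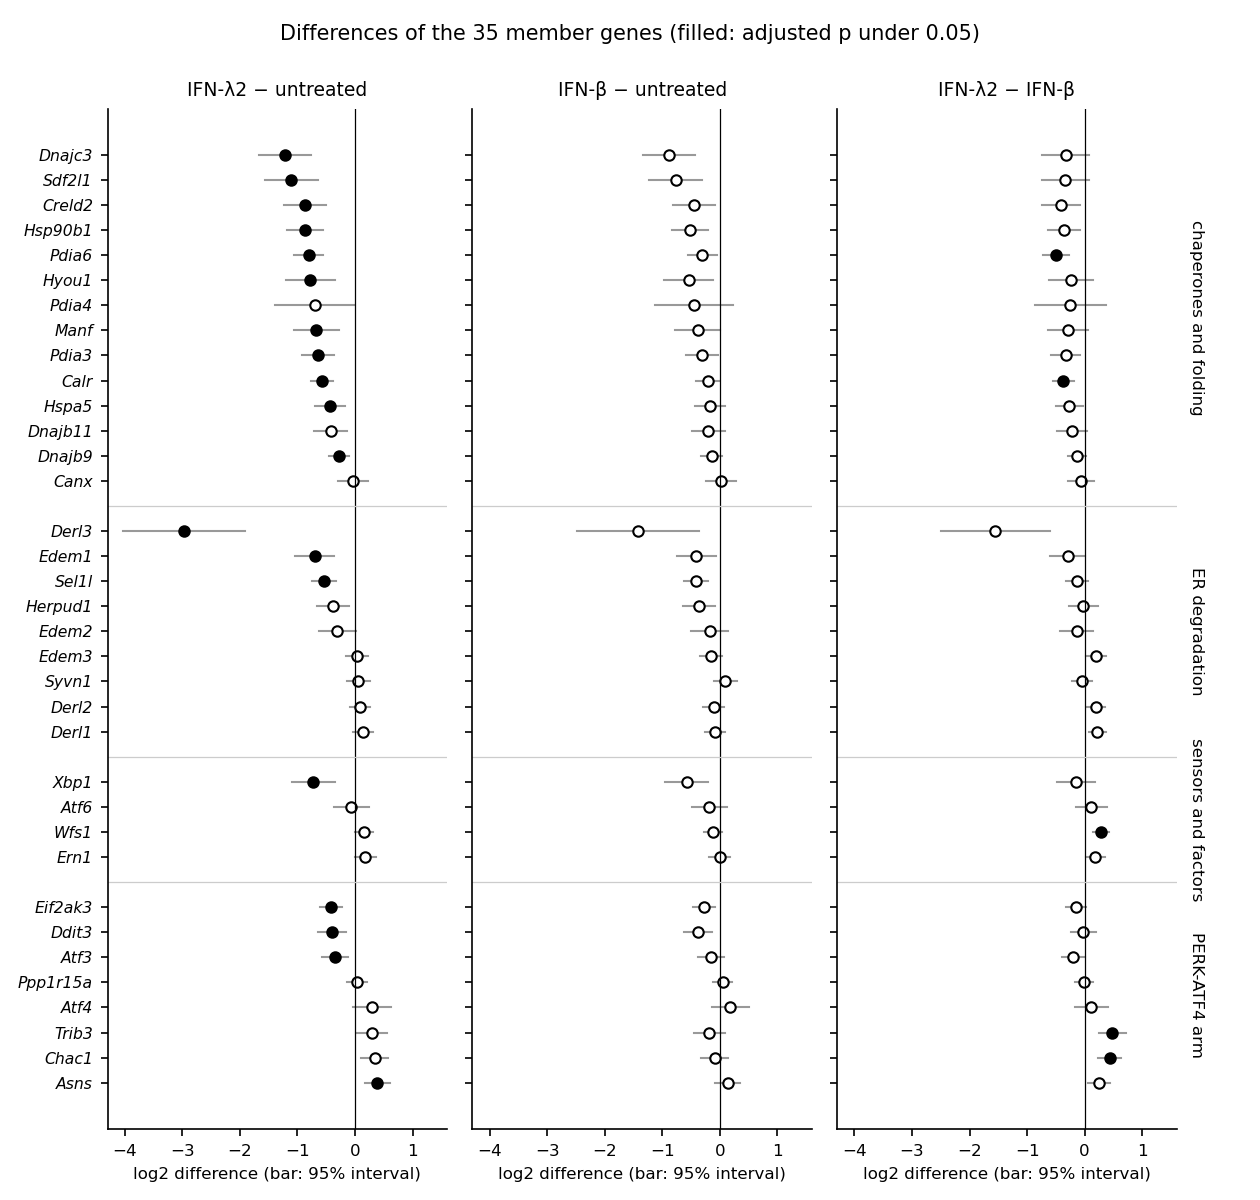
Log2 differences of the 35 members in the 3 comparisons, grouped by role, with 95% intervals from the limma fit (filled circles, adjusted p below 0.05). In IFN-λ2 against untreated cells all 14 chaperones lie below 0 and Derl3 lies farthest left at -2.97.

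Derl3, a derlin that helps to draw misfolded proteins out of the ER and is known as an XBP1 target in secretory cells, showed the largest change of the set. Its signal was 526 and 517 in the untreated arrays, 102, 50.4 and 56.9 with IFN-λ2, and 252, 109.8 and 266 with IFN-β. The 3 groups did not overlap, although IFN-β replicate 2 came close to the highest IFN-λ2 array. Derl3 fell by 2.97 ± 0.44 (SE) on the log2 scale with IFN-λ2, 7.85-fold, with an adjusted p of 0.00537. The methods' t-test alone of the 21 alternative settings did not call it (adjusted p = 0.0610). No other of the 20800 genes had a lower log2 difference in this fit, although Derl3 ranked 11 from the lowest with no floor, 6 without untreated replicate 2, 27 without untreated replicate 3, and 3 without IFN-λ2 replicate 2 or 3. With the normexp correction the difference was -1.86 with an adjusted p of 0.00859, again the lowest. On the array with the lowest Derl3 signal, 50.4 units, the dimmest probe scored as well above background read 33.1 units.

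The 60-base Derl3 probe lies at chr10:75358503-75358562 on mm9, the build of the array files. The 250 bases before the RefSeq start of Derl3 on GRCm38.p6 (chr10:75893148-75893397, plus strand) are shown because this gene had the largest change and carries an ER stress element. That element is CCAAT, 9 bases, then CCACG, and is bound by NF-Y with ATF6 or XBP1. Capitals mark it, here on the minus strand, 156 to 138 bases before the start.
Derl3: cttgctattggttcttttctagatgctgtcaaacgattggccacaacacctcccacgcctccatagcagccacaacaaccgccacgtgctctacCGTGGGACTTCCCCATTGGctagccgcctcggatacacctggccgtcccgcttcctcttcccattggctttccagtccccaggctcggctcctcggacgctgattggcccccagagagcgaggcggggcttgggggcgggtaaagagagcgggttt

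Among the chaperones, the largest differences were in Dnajc3 (P58IPK, an ER co-chaperone that also restrains PERK) and Sdf2l1, a partner of BiP complexes. Dnajc3 signal was 1625 and 1850 in the untreated arrays, 833, 698 and 713 with IFN-λ2, and 1175, 740 and 951 with IFN-β. Sdf2l1 signal was 8206 and 6222 untreated, 3647, 3225 and 3109 with IFN-λ2, and 4695, 3323 and 4760 with IFN-β. For both genes every treated array lay below both untreated arrays, and IFN-β replicate 2 lay within the range of the IFN-λ2 arrays. With IFN-λ2 Dnajc3 fell by 1.22 ± 0.19 on the log2 scale (2.32-fold, adjusted p = 0.00669). Sdf2l1 fell by 1.11 ± 0.19 (2.15-fold, adjusted p = 0.00958), a call lost without untreated replicate 2 (adjusted p = 0.0578) and with the methods' t-test (0.0713).

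Creld2, a secreted ER stress protein, and Hsp90b1 (GRP94), the ER form of HSP90, followed the same order. Creld2 signal was 93047 and 91229 untreated, 55342, 51119 and 45412 with IFN-λ2, and 76976, 55094 and 71369 with IFN-β. Hsp90b1 signal was 77272 and 67453 untreated, 43001, 37649 and 38249 with IFN-λ2, and 53720, 43273 and 55405 with IFN-β. Untreated and IFN-λ2 arrays were apart for both genes, and among the IFN-β arrays replicate 2 was the lowest of each. With IFN-λ2 Creld2 fell by 0.87 ± 0.15 on the log2 scale (1.83-fold, adjusted p = 0.0103). Hsp90b1 fell by 0.87 ± 0.13 (1.82-fold, adjusted p = 0.00571). Creld2 lost its call without either untreated array (adjusted p = 0.0551 each), and both genes lost it with the methods' t-test (0.0545 and 0.0542).

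The protein disulfide isomerases, which form and shuffle disulfide bonds, moved with them in part. Pdia6 signal was 99786 and 86769 untreated, 56233, 51029 and 52786 with IFN-λ2, and 73611, 69334 and 83088 with IFN-β, so that the 3 groups did not overlap. It fell by 0.80 ± 0.11 on the log2 scale with IFN-λ2 (1.75-fold, adjusted p = 0.00325), and its second, dimmer probe fell by 1.01. Pdia3 signal was 9711 and 9733 untreated, 6692, 6239 and 5865 with IFN-λ2, and 8977, 6950 and 7748 with IFN-β. Pdia3 (ERp57), the partner of calreticulin and calnexin, fell by 0.64 ± 0.12 (adjusted p = 0.0121), a call lost without untreated replicate 2 (0.0568) or 3 (0.0627). The methods' t-test did not call Pdia6 after adjustment (0.05003). Pdia4 missed the threshold, with a difference of -0.70 ± 0.29 (adjusted p = 0.143), and its untreated arrays were far apart at 4404 and 2986.

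Hyou1 and Manf completed the members of this role that changed by at least 1.5-fold. Hyou1 (GRP170), a nucleotide exchange factor of BiP, read 345 and 342 untreated, 227, 194 and 184 with IFN-λ2, and 285, 186 and 247 with IFN-β. It fell by 0.77 ± 0.18 on the log2 scale with IFN-λ2 (adjusted p = 0.0272). Manf, a secreted protein that binds BiP, read 25683 and 18431 untreated, 14352, 12862 and 13823 with IFN-λ2, and 16822, 14578 and 18859 with IFN-β. It fell by 0.67 ± 0.16 (adjusted p = 0.0322), with no overlap between IFN-λ2 and untreated arrays but with IFN-β replicate 3 inside the untreated range. Without untreated replicate 2 the Manf difference was -0.43 (adjusted p = 0.131), and with the replicate number as a block its adjusted p was 0.0887. Manf lost its call under 8 and Hyou1 under 7 of 21 alternative settings.

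The master chaperone and the lectin chaperones changed less. Hspa5 fell by 0.43 ± 0.11 on the log2 scale with IFN-λ2 (1.35-fold, adjusted p = 0.0374), from 133082 and 138120 to 107376, 99085 and 95795. Calr (calreticulin), which retains glycoproteins for folding, fell by 0.58 ± 0.08 (1.49-fold, adjusted p = 0.00477). Its membrane counterpart Canx (calnexin) gave -0.04 with a 95% interval from -0.29 to 0.22, and the groups overlapped. Among the BiP co-chaperones, Dnajb9 fell by 0.28 (adjusted p = 0.0445) and lost that call under 13 of 21 alternative settings, as Hspa5 did under 8, among them leaving out either untreated array or any 1 IFN-λ2 array. Dnajb11 gave -0.42 (adjusted p = 0.0543), while its dimmer second probe gave 0.43 (adjusted p = 0.0910), so that its 2 probes opposed each other. Calr and Dnajc3 kept their calls under all 21 settings.

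**Figure D2:**
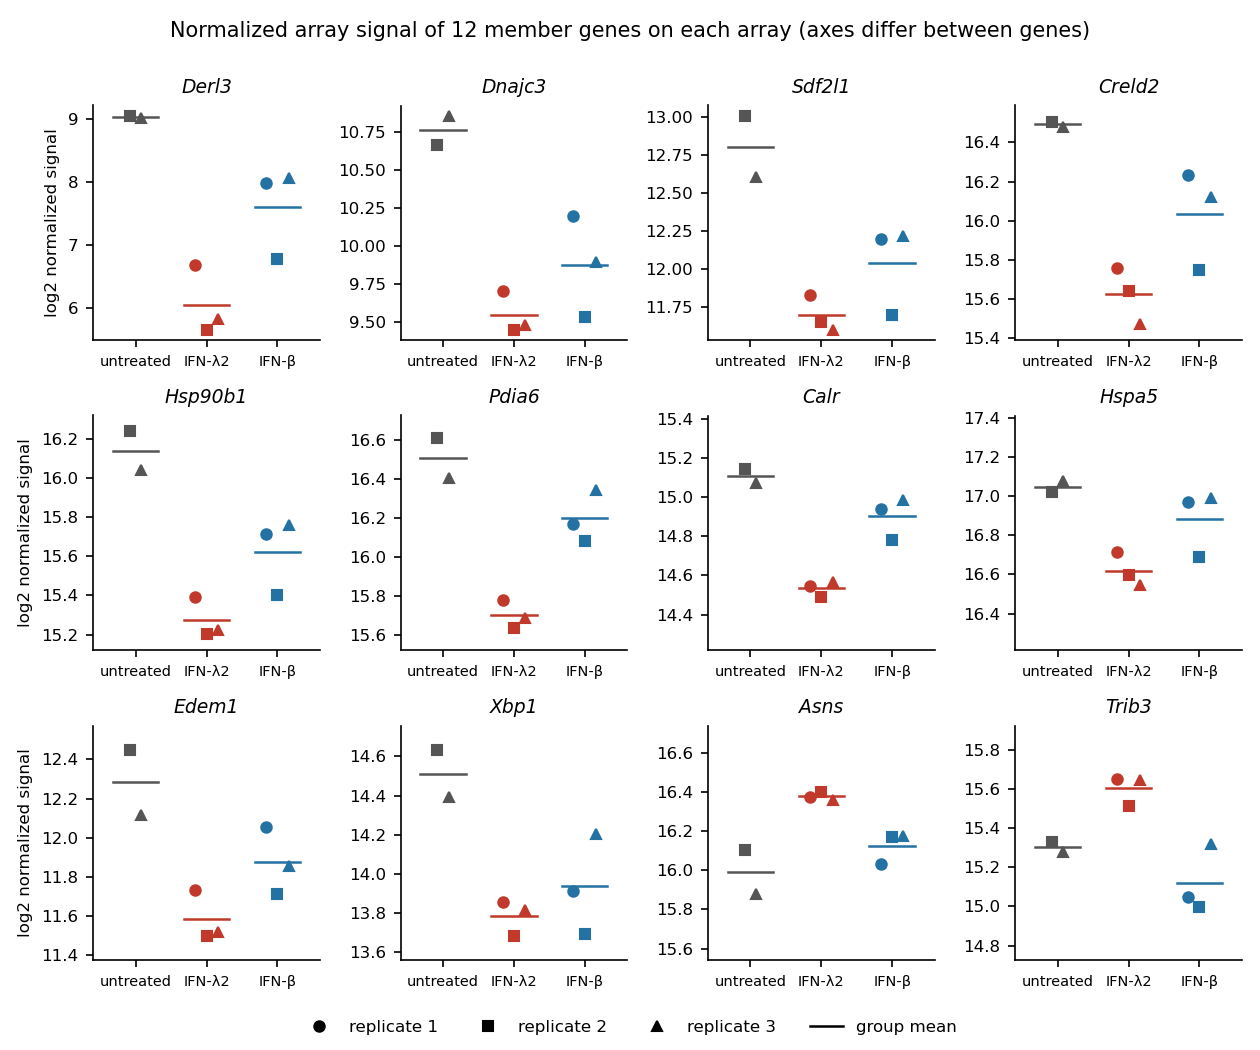
Log2 normalized signal of 12 members on each of the 8 arrays (symbols give the replicate number, lines the group mean; the vertical axes differ between genes). In Derl3, Hsp90b1, Pdia6 and Calr the 3 groups do not overlap, and in the chaperones shown IFN-β replicate 2 lies nearest to the IFN-λ2 arrays.

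Besides Derl3, 2 degradation genes fell with IFN-λ2. Edem1, a lectin that hands misfolded glycoproteins to degradation, read 5585 and 4447 untreated, 3405, 2896 and 2929 with IFN-λ2, and 4252, 3361 and 3709 with IFN-β. It fell by 0.70 ± 0.14 on the log2 scale (1.62-fold, adjusted p = 0.0180), every treated array lying below both untreated ones. Edem1 lost its call under 5 of 21 alternative settings, among them normexp (0.0823), the methods' t-test (0.111) and leaving out untreated replicate 2 (0.0901) or IFN-λ2 replicate 2 (0.0528) or 3 (0.0562). Sel1l, the scaffold of the ligase, fell by 0.54 ± 0.09 (1.46-fold, adjusted p = 0.00770), from 958 and 889 to 654, 599 and 651, and the methods' t-test did not call it (0.0539). The other members of the machinery did not pass the test: Herpud1 gave -0.39 (adjusted p = 0.0630), Edem2 -0.31, Edem3 0.04, Derl2 0.09, Derl1 0.15 and the ligase Syvn1 itself 0.06. For Syvn1 the 95% interval was -0.14 to 0.25, and for Derl1 -0.03 to 0.32. The dimmer probe of Derl1 gave -0.04, and those of Derl2 gave 0.28 and 0.05, none of which passed the test. The difference between Derl3 and these paralogs was not tested.

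Of the 4 sensors and factors Xbp1 was the 1 called lower with IFN-λ2. Xbp1 signal was 25381 and 21492 untreated, 14852, 13166 and 14421 with IFN-λ2, and 15405, 13257 and 18837 with IFN-β. All treated arrays lay below both untreated arrays. Xbp1 fell by 0.73 ± 0.16 on the log2 scale with IFN-λ2 (1.65-fold, adjusted p = 0.0209). The call was lost under 8 of 21 alternative settings, among them the replicate number as a block (adjusted p = 0.0623) and leaving out either untreated array or any 1 IFN-λ2 array. The probe does not separate spliced from unspliced Xbp1 by anything in the array files. Its activator Ern1 gave 0.18 (95% interval -0.01 to 0.37), Atf6 gave -0.07 (-0.37 to 0.24) and Wfs1, an ER membrane protein that restrains ATF6, gave 0.16 (adjusted p = 0.145).

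In the PERK-ATF4 arm members moved both ways with IFN-λ2. Eif2ak3 signal was 4415 and 3956 untreated, 3279, 2980 and 3122 with IFN-λ2, and 3328, 3534 and 3519 with IFN-β. It fell by 0.42 ± 0.08 on the log2 scale (1.34-fold, adjusted p = 0.0145). Ddit3 and Atf3, transcription factors of the late stress response, fell by 0.41 (adjusted p = 0.0366) and 0.35 (adjusted p = 0.0450). Ddit3 lost its call under 11 and Atf3 under 10 of the 21 alternative settings, and with the replicate number as a block Eif2ak3 (0.0529), Ddit3 (0.0727) and Atf3 (0.0971) did not pass.

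Asns, asparagine synthetase and a target of ATF4, was the 1 member that rose. Asns signal was 70318 and 60276 untreated, 85048, 86500 and 84150 with IFN-λ2, and 67046, 73741 and 73950 with IFN-β. The IFN-λ2 arrays lay above all others, and Asns was higher by 0.39 ± 0.09 on the log2 scale than in untreated cells (1.31-fold, adjusted p = 0.0265). The call was lost with the normexp correction, with quantile normalization, with the replicate number as a block, with only the groups compared, with the methods' t-test, and when untreated replicate 3 or any 1 of the IFN-λ2 arrays was left out. Chac1, a glutathione-degrading enzyme, gave 0.34 (adjusted p = 0.0515), Trib3, a pseudokinase that feeds back on ATF4, gave 0.30 (adjusted p = 0.112), and Atf4 gave 0.30 on one probe and 0.22 on the other (adjusted p = 0.182 and 0.125). Ppp1r15a (GADD34), which reverses eIF2α phosphorylation, gave 0.04 with a 95% interval from -0.13 to 0.21.

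With IFN-β, 0 of 35 members passed the limma test against untreated cells in either direction, where 1.70% of all genes changed and 0.197% fell. At an unadjusted p below 0.05, 15 members were lower and 0 higher in the same fit, beside 4.68% and 7.21% of all genes. The methods' t-test also called 0 after adjustment. All 3 IFN-β arrays lay below both untreated arrays for 23 of 35 members, a pattern found in 10.9% of all genes, and for 11 of 14 chaperones. The median difference was -0.35 for chaperones and -0.20 for all members, beside 0.02 over all genes. In 13 of 14 chaperones the IFN-β mean lay between the IFN-λ2 and untreated means, an order that was not counted over all genes.

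Single members were estimated lower with IFN-β than in untreated cells with intervals that exclude 0. Dnajc3 differed by -0.89 (95% interval -1.34 to -0.43, adjusted p = 0.103), and it reached an adjusted p of 0.0411 with the replicate number as a block and 0.0471 without IFN-β replicate 1. Derl3 differed by -1.42 (-2.48 to -0.37, adjusted p = 0.261), Sdf2l1 by -0.77 (-1.22 to -0.31, adjusted p = 0.158) and Sel1l by -0.41 (-0.62 to -0.20, adjusted p = 0.103). Hspa5 differed by -0.17 (-0.43 to 0.09), and Asns by 0.14 (-0.08 to 0.35).

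The IFN-β arrays were uneven among themselves. Replicate 2 was the lowest of the 3 IFN-β arrays for 28 of 35 members and 13 of 14 chaperones, which was not counted over all genes. Relative to the untreated mean, the median over the chaperones was -0.26, -0.53 and -0.18 in IFN-β replicates 1, 2 and 3, and -0.58, -0.79 and -0.69 in the IFN-λ2 replicates. Mmp7, a protease gene that rose with IFN-λ2, read 423, 421 and 402 units on the 3 IFN-β arrays, against 4498, 6484 and 4827 with IFN-λ2. Replicate 2 of IFN-λ2 and of IFN-β had the fewest probes well above background of the 8 arrays, 20992 and 21687. The cause of the unevenness was not tested. Replicates of 1 number shared a slide. On slide 2 the chaperone median against the untreated array was -0.85 for IFN-λ2 and -0.64 for IFN-β, and on slide 3 it was -0.62 and -0.11. Each group held the same place on every slide, so place and treatment cannot be told apart.

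**Figure D3:**
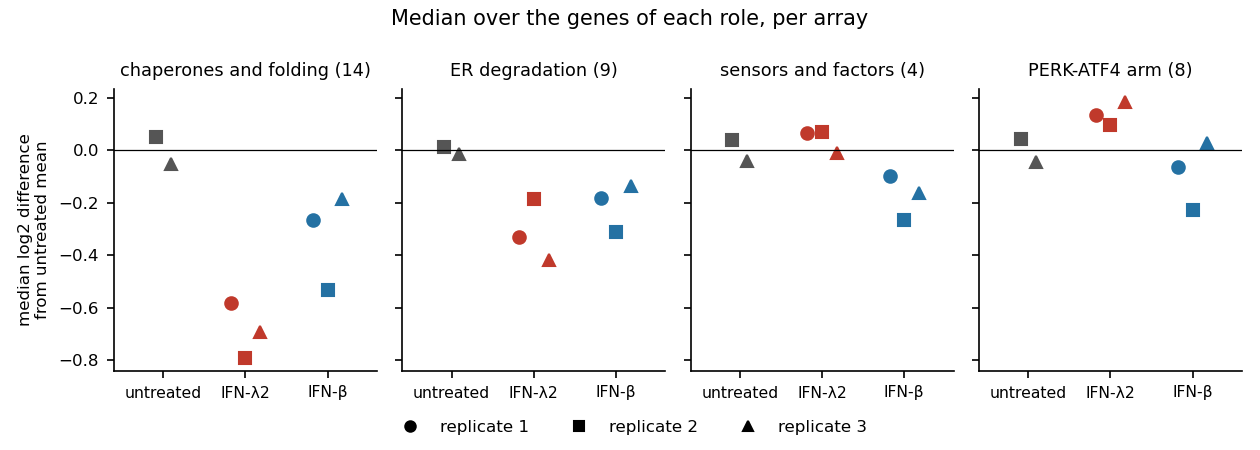
Median log2 difference from the untreated mean over the genes of each role, for each of the 8 arrays (number of genes in parentheses, symbols give the replicate number). The chaperone medians of the IFN-λ2 arrays, -0.58 to -0.79, lie below those of the IFN-β arrays, -0.18 to -0.53, while in the PERK-ATF4 arm the IFN-λ2 medians lie above 0.

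Directly between the cytokines, 2 of 35 members were lower and 3 higher with IFN-λ2, where 5.97% of all genes were lower and 5.74% higher. The shares of members are thus near those of all genes. Pdia6 was lower by -0.50 ± 0.10 on the log2 scale (adjusted p = 0.0193) and Calr by -0.37 ± 0.07 (adjusted p = 0.0236). Calr read 31449, 28106 and 32437 with IFN-β, against 23955, 22988 and 24258 with IFN-λ2. All 14 chaperones had a negative estimate, with a median of -0.31, and within slides 1, 2 and 3 that median was -0.33, -0.13 and -0.43. Every IFN-λ2 array lay below every IFN-β array for 8 members and above for 8, where all genes gave 16.5% and 16.2%.

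On the IFN-λ2 side of this contrast stood Trib3, Chac1 and Wfs1. Trib3 signal was 41118 and 39803 untreated, 51456, 46752 and 51336 with IFN-λ2, and 33829, 32724 and 40951 with IFN-β. The IFN-λ2 arrays lay above and the IFN-β arrays reached from below the untreated arrays into their range. Trib3 was higher by 0.48 ± 0.10 on the log2 scale (1.40-fold, adjusted p = 0.0248). Chac1 read 13520, 14224 and 13455 with IFN-λ2 against 10076, 9358 and 11156 with IFN-β and was higher by 0.43 ± 0.09 (1.35-fold, adjusted p = 0.0222). Wfs1 was higher by 0.28 ± 0.06 (1.22-fold, adjusted p = 0.0254).

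Derl3 differed between the cytokines by -1.55 ± 0.40 on the log2 scale, with an adjusted p of 0.0519 and differences of -1.30, -1.12 and -2.23 within slides 1, 2 and 3. With the replicate number as a block Derl3 passed (adjusted p = 0.0407), whereas Pdia6 (0.0638), Calr (0.0573), Trib3 (0.0533), Chac1 (0.0703) and Wfs1 (0.0636) did not. Without IFN-β replicate 2, 6 members were lower with IFN-λ2, and Derl3, Creld2, Hsp90b1 and Hspa5 were among them (adjusted p = 0.0158, 0.0291, 0.0432 and 0.0485). Over all 25971 probes 1432 were lower in that fit, beside 1476 with all arrays. Leaving out any 1 IFN-λ2 array, or IFN-β replicate 3, left 0 members lower, where 668 to 1007 of all probes were lower. Without IFN-β replicate 1 the count was 1. The 3 higher members became 0 without IFN-λ2 replicate 1 or 3 or IFN-β replicate 1 or 2, 1 without IFN-λ2 replicate 2 and 2 without IFN-β replicate 3.

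Promoter sequence was searched for known elements. Members were chosen as genes of the stress response, and the ER stress element is bound by factors known to drive it. The share of members with that element is thus not independent of their choice. RefSeq promoters of GRCm38.p6, 250 bases before to 50 after the start, were matched for 31 of 35 members and 27025 genes in all, and both strands were searched. The ER stress element occurred in 37 of all genes (0.137%) and in 9 of 31 members: 7 of 12 chaperones, Derl3, Syvn1 and none of the 8 PERK-ATF4 genes. The other members with a promoter did not hold it in this window, and TGACGTGG, another element bound by XBP1 and ATF6, was in 0 of 31 members and 0.714% of all genes. Of those 9 members 7 fell with IFN-λ2, namely Derl3, Dnajc3, Creld2, Hsp90b1, Pdia6, Calr and Hspa5. Canx and Syvn1, which carry it as well, did not pass the test. Of all tested genes with a promoter 9.21% fell and 11.5% rose. Of the 13 tested carriers outside the set 1 fell and 1 rose, with a median of -0.10.

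The stretches around the element are shown for the other carriers, with the element in capitals and 15 bases on each side, in the direction of the gene. Positions on GRCm38.p6 are chr14:118937812-118937860 for Dnajc3 (plus strand), chr15:88819505-88819553 for Creld2 (plus), chr12:17266476-17266524 for Pdia6 (plus), chr2:34772010-34772058 for Hspa5 (plus) and chr19:6046517-6046565 for Syvn1 (plus). On the minus strand are Calr at chr8:84847060-84847108, Canx at chr11:50325785-50325833 and Hsp90b1, with 2 elements, at chr10:86705623-86705671 and chr10:86705518-86705566.
Dnajc3: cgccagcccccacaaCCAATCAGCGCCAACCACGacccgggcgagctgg
Creld2: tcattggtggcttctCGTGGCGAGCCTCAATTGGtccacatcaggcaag
Hsp90b1, first: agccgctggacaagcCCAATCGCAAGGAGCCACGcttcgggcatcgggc
Hsp90b1, second: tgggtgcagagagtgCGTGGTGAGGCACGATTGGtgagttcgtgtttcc
Pdia6: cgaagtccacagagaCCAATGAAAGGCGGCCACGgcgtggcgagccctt
Calr: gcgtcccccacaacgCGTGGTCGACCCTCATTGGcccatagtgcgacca
Hspa5: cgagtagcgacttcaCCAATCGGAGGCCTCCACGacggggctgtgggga
Canx: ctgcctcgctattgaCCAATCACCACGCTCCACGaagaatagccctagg
Syvn1: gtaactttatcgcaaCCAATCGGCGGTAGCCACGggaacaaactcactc

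The PERK-ATF4 arm carried another motif. The core of the CEBP-ATF response element, bound by ATF4, was searched as TGATG, 1 base, AA. It occurred in 4.51% of all genes and in 4 of 8 PERK-ATF4 members (Asns, Atf3, Chac1 and Trib3) as well as in Herpud1, but in none of the 12 chaperones. Of its carriers in the arm, Asns rose and Atf3 fell with IFN-λ2, and Chac1 and Trib3 exceeded their IFN-β values under IFN-λ2. Among the 370 tested carriers outside the set 49 rose and 34 fell (13.2% and 9.19%), near the 11.5% and 9.21% of all tested genes with a promoter. The windows before the start are chr6:7693210-7693247 for Asns (minus strand), chr2:119351034-119351071 for Chac1 (plus), chr1:191183421-191183458 for Atf3 (minus) and chr8:94386302-94386339 for Herpud1 (plus), shown with the motif in capitals because Asns rose and Atf3 fell although both carry it. Chac1 and Herpud1 did not pass the test against untreated cells.
Asns: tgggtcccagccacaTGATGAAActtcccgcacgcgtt
Chac1: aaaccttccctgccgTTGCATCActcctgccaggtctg
Atf3: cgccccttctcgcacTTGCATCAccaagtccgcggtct
Herpud1: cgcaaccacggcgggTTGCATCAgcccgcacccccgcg

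Interferon elements were found in few members. A core of the interferon-stimulated response element (GAAA, 2 bases, GAAA) was found in Ppp1r15a alone of 31 members, beside 3.99% of all genes, and a STAT core (TTC, 3 bases, GAA) in Edem2 and Eif2ak3, beside 9.55%. A motif match is a description of the letters in this window, and a missing match says nothing about a factor.

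The rest of the pathway was described from wider lists. Of 43 further genes of ER folding, translocation and export 11 fell and 1 rose with IFN-λ2, with a median of -0.16, where 8.43% of all genes fell and 10.3% rose. The largest falls were in Sec24d, a coat protein of ER export vesicles (-0.76 ± 0.11, adjusted p = 0.00515), the disulfide isomerase Pdia5 (-0.66, adjusted p = 0.0143) and Ostc, a subunit of the oligosaccharyltransferase (-0.58, adjusted p = 0.00281). Ostc and Erp29 were also lower than with IFN-β, by -0.36 and -0.31 (adjusted p = 0.0156 and 0.0260). Of 29 further degradation genes 0 were called with limma in any comparison, with a median of 0.05 for IFN-λ2 against untreated cells. At an unadjusted p below 0.05, 5 of them were higher and 4 lower with IFN-λ2 than in untreated cells, 0 differed with IFN-β, and 2 exceeded their IFN-β level under IFN-λ2. Of all genes 17.5% were higher and 15.9% lower at that p in the first of these comparisons, and 11.9% were higher in the last. The methods' t-test after adjustment called 1 for IFN-λ2 against untreated cells and 0 in the other comparisons.

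Of 18 further sensors and stress factors 2 rose and 2 fell with IFN-λ2, with a median of -0.03. Of all genes 10.3% rose and 8.43% fell. Against IFN-β 2 were higher and 2 lower, where 5.74% of all genes were higher and 5.97% lower. Creb3l2, an ER-bound transcription factor of secretory cargo genes, fell most with IFN-λ2. Its signal was 470 and 532 untreated, 251, 226 and 226 with IFN-λ2, and 366, 331 and 380 with IFN-β, and the 3 groups did not overlap. It fell by 1.09 ± 0.10 on the log2 scale (adjusted p = 0.000655) and was lower than with IFN-β by -0.61 (adjusted p = 0.00702). Its relative Creb3l1 was lower than with IFN-β by -0.91 (adjusted p = 0.0332). Creb3l3 went the other way, higher by 0.81 than in untreated cells and by 0.64 than with IFN-β (adjusted p = 0.0192 and 0.0416), and Bhlha15 (MIST1), a secretory cell factor, was higher than with IFN-β by 0.75 (adjusted p = 0.0214).

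A wider list held genes of amino acid supply and the integrated stress response, with eIF2α kinases upstream of ATF4 and genes downstream of it. Of 42 such genes 14 rose and 3 fell with IFN-λ2, with a median of 0.22, where 10.3% of all genes rose and 8.43% fell. Against IFN-β 8 were higher and 1 lower, with a median of 0.18, where 5.74% of all genes were higher and 5.97% lower. Eif2ak2 (PKR), an interferon-induced eIF2α kinase, rose by 2.12 ± 0.10 with IFN-λ2 and by 2.08 with IFN-β (adjusted p = 2.85e-05 and 4.54e-05). Aldh1l2, a mitochondrial folate enzyme, read 93.3 and 87.0 untreated, 187, 173 and 148 with IFN-λ2, and 107.1, 66.3 and 80.9 with IFN-β. It was higher with IFN-λ2 by 0.90 ± 0.20 than in untreated cells and by 1.02 ± 0.18 than with IFN-β (adjusted p = 0.0232 and 0.0141).

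Cth, which makes cysteine, read 708 and 621 untreated, 1143, 1096 and 1001 with IFN-λ2, and 698, 682 and 655 with IFN-β. All IFN-λ2 arrays lay above all others, by 0.70 on the log2 scale against untreated cells and 0.67 against IFN-β (adjusted p = 0.00308 and 0.00365). Nars, asparaginyl-tRNA synthetase, rose by 0.57 (adjusted p = 0.00412), and Slc7a11, the cystine transporter, was higher than with IFN-β by 0.91 (adjusted p = 0.00235). Fgf21, a stress hormone, fell with both cytokines, by 0.60 with IFN-λ2 and 0.70 with IFN-β (adjusted p = 0.00797 and 0.0185). Bbc3 (PUMA), a cell death gene, differed between IFN-λ2 and IFN-β by -0.38 (adjusted p = 0.0354) and was lower under IFN-λ2.

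**Figure D4:**
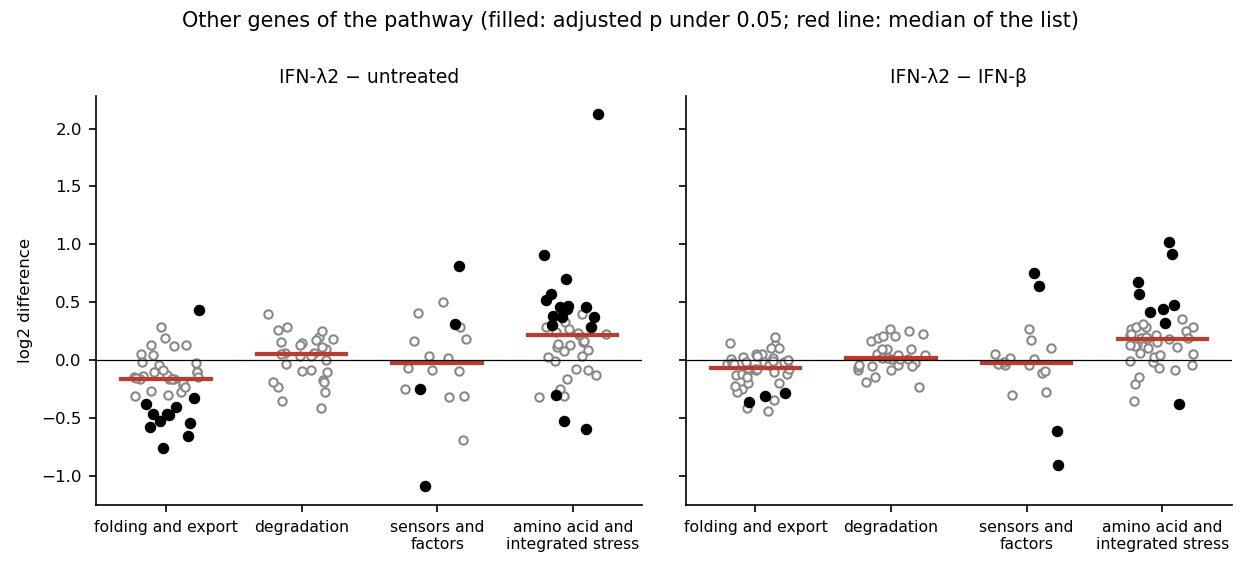
Log2 differences of the pathway genes outside the 35 members, by list, for IFN-λ2 against untreated cells and against IFN-β (filled circles, adjusted p below 0.05; red lines, list medians; points are spread sideways for legibility). Folding and export genes lie mostly below 0 with a median of -0.16 against untreated cells, and amino acid and integrated stress genes mostly above 0 with a median of 0.22.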

How the data were processed

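Total RNA from 8 IEC10 samples was measured on 1-color Agilent arrays. The authors deposited the scanner intensity of every feature, made with Feature Extraction 10.7.3.1, and a table of processed intensity values on a linear scale. Here processed signals, already background-subtracted, were averaged per probe as a geometric mean after the exclusions of the study's methods. Each array was brought to 1500 at its 75th percentile, values under 15 were set to 15, and log2 was taken. A probe was tested if 2 or more arrays exceeded 15 (25971 probes), and the brightest probe stood for a gene. limma 3.58.1 (R 4.3.3) estimated a mean for each of the 3 groups from the 8 arrays together, with Benjamini-Hochberg adjustment over all probes. The number of arrays limits the precision. In simulated data, 200 of 25971 probes were changed. Log2 shifts of 0.6, 1 and 2 were recovered in 18.5, 66.0 and 90.5% of them for IFN-λ2 against untreated cells. For IFN-β against untreated cells the shares were 23, 67.5 and 86%. Many more probes than 200 were called for IFN-λ2 in the real data, which eases the adjustment. The simulated shares therefore do not apply directly to that comparison. In limma the groups share 1 variance estimate, and the comparisons with untreated cells share those arrays.

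Values were printed for each array for members called with at least a 1.5-fold change and for the strongest of each role; of the other lists, the 5 largest called changes per comparison and direction were named. Members, roles, lists, motifs and alternatives were chosen with earlier results of these data known. Replicate numbers match the slide in the file headers. They were checked for pairing: deviations of same-numbered IFN-λ2 and IFN-β arrays correlated at 0.178, 0.255 and 0.297. Replicates were not duplicates of one another, since no pair of arrays in a group shared an identical value above the floor of 15 on any probe.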

Additional observations from a re-analysis of the deposited data

How the results depend on the processing

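No member gene called in a comparison changed direction under an alternative setting. Dnajb11, which was not called, moved to 0.0018 for IFN-λ2 against untreated cells in the mean over its 2 opposed probes. Of the counts, the members lower with IFN-λ2 than in untreated cells numbered 3 with the methods' t-test after adjustment and 0 at the study's own threshold. In that comparison the t-test called 635 of 25971 probes lower, and 306 of 20800 genes met the study's threshold. The members higher in that comparison were 0 with the normexp correction, quantile normalization, only the groups compared and the replicate block, and 2 with a floor of 50, no filter, a well-above-background filter, the authors' table, a variance trend and the mean over probes of a gene. Members lower with IFN-β than in untreated cells numbered 1 (Dnajc3) with a floor of 50 and with the replicate block. Between the cytokines, members lower and higher with IFN-λ2 were 0 and 1 with normexp, 1 and 0 with the replicate block, and 0 and 1 with the methods' t-test, and 5 were higher with a variance trend. Leaving out 1 array at a time gave 6 to 18 lower and 0 to 1 higher members for IFN-λ2, 0 to 1 lower for IFN-β, and 0 to 6 lower and 0 to 3 higher between the cytokines. The cause was not tested. Chaperone medians stayed between -0.83 and -0.59 for IFN-λ2 and between -0.46 and -0.20 for IFN-β against untreated cells. The normexp correction moved the median of all probes to 0.11 for IFN-λ2 against untreated cells, and the chaperone median to -0.70. With the replicate block 13 members were lower with IFN-λ2 than in untreated cells, where 1505 of 25971 probes were lower. The untreated arrays, replicates 2 and 3, correlated with their IFN-λ2 numbers at 0.00 and -0.01.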

Other observations

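Chaperones of other compartments were measured beside those of the ER. Of 7 cytosolic heat shock genes 1 rose with IFN-λ2, Hsph1 (0.29 on the log2 scale, adjusted p = 0.0381), with a median of 0.08, where 10.3% of all genes rose. Of 6 genes of the mitochondrial unfolded protein response 2 rose, the chaperones Hspd1 (0.38, adjusted p = 0.0103) and Hspa9 (0.39, adjusted p = 0.0388), and all 6 estimates were above 0 with a median of 0.27. Hspd1 read 69462 and 74289 in untreated cells, 93492, 93162 and 93341 with IFN-λ2, and 85031, 82675 and 79930 with IFN-β, so that the 3 groups did not overlap. With limma 0 of the 6 were called with IFN-β against untreated cells or between the cytokines, where 1 and 4 were higher at an unadjusted p below 0.05 (7.21% and 11.9% of all genes) and the methods' t-test called 0 and 1 after adjustment.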
